A study of Mus musculus with 6 samples.

Results

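The Cyp3a cytochromes are a subfamily of cytochrome P450 enzymes, and their transcripts were compared between liver tumours and the liver beside them. Members were taken by the gene symbol of the array platform: Cyp3a11, Cyp3a13, Cyp3a16, Cyp3a25, Cyp3a41a and Cyp3a44. Of these 6 names 5 had a probe, with 7 probes in all, out of 19057 genes and 45281 probes on the array. Cyp3a41a had no probe under its own symbol and was not measured. The data are 6 Illumina bead arrays, on which the brightness of a probe reports the abundance of a transcript. By the sample titles, 3 arrays hold tumours of the animals 1293, 1309 and 1316, and 3 hold the liver adjacent to each tumour. Both groups came from C57BL/6J mice of 6 months that had received 3e+10 particles of the vector AAV-Rian-CMV soon after birth, so the adjacent livers carry the same treatment as the tumours. The vector is an adeno-associated virus aimed at the Rian locus, a noncoding RNA gene. No liver of uninjected animals was among the arrays, and each animal gave 1 tumour.

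Cyp3a enzymes sit in the membrane of the endoplasmic reticulum of hepatocytes, where they oxidise drugs, steroids and bile acids with electrons passed on by P450 reductase and cytochrome b5. Their transcription is switched on by ligand-activated nuclear receptors, above all the pregnane X receptor PXR (gene Nr1i2) and the constitutive androstane receptor CAR (gene Nr1i3), which pair with RXR, and it depends on the hepatocyte factor HNF4A. In adult mouse liver Cyp3a11, Cyp3a13 and Cyp3a25 are made in both sexes, whereas Cyp3a41 and Cyp3a44 are female-biased and Cyp3a16 belongs mainly to fetal and young liver. Cyp3a11 is the mouse counterpart most often set beside human CYP3A4, and its expression is strongest around the central vein.

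All 6 genes lie on chromosome 5, and the 250 bases upstream of their annotated starts show which members are close copies of each other. These sequences are from RefSeq, build GRCm38.p6, minus strand, and all 6 members were matched by symbol. Cyp3a25 had 2 entries, of which only the first was used. They are shown for the brightest member, Cyp3a11, for both measured members that stayed at background, Cyp3a16 and Cyp3a44, and for Cyp3a25, whose probe fell in tumours. Capitals mark 3 motifs searched on both strands: AGGTCA, the core element of many nuclear receptors, its variant AGTTCA, and CAAAGTCCA, an element of the HNF4A type. No matches overlapped.
Cyp3a11, chr5:145879855-145880104: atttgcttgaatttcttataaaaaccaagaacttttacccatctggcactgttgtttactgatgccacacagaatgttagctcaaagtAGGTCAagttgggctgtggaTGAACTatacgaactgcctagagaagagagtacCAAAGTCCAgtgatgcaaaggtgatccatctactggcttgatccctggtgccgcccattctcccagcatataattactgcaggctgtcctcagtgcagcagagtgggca
Cyp3a16, chr5:145469724-145469973: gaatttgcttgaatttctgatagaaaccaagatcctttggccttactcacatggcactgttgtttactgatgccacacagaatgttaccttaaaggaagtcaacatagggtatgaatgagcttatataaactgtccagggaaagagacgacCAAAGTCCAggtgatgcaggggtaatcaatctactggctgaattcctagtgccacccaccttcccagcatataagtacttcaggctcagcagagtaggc
Cyp3a44, chr5:145805875-145806124: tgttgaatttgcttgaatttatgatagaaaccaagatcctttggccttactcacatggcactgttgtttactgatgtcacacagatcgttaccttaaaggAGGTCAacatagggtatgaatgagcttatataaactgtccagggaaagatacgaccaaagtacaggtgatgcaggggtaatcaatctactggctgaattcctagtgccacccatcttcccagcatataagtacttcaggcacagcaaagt
Cyp3a25, chr5:146009619-146009868: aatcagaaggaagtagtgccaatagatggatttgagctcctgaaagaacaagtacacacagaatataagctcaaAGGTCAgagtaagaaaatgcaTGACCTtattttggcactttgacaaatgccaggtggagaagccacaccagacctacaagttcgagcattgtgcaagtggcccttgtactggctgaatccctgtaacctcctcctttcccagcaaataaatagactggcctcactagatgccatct

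The windows of Cyp3a16 and Cyp3a44 were identical at 95.9% of 246 aligned bases, and that of Cyp3a11 matched Cyp3a16 at 83.3% of 239. The window of Cyp3a25 did not align with these beyond 16 bases. It matched Cyp3a59, which has no probe under its symbol, at 95.6% of 249 bases, and Cyp3a57 at 90.3% of 248. Cyp3a13, which lies apart from the others on the chromosome, held no match to any of the motifs. CAAAGTCCA stands in Cyp3a11, Cyp3a16 and Cyp3a41a, against 0.39% of 32536 promoters of the same length. AGGTCA stands in Cyp3a11, Cyp3a44 and, in both orientations, in Cyp3a25, and 14.04% of all promoters hold it. AGTTCA stands in Cyp3a11 and Cyp3a41a, and 11.84% of all promoters hold it. CAAAGTCCA thus occurs upstream of a bright member and of a member at background. Transcripts of such close relatives may share a probe, and probe sequences were not used here, so a probe is called by its platform name without knowing whether it reads a relative as well.

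Raw array medians lay between 138.4 and 160.5 units. The background level, estimated from the signals of each array, lay between 168.5 and 191.7 units, and 29.25% to 31.7% of probes exceeded it. Rian was at least 2.69-fold higher in tumours, where its probe was above background on 3 of 3 arrays, against 0 of 3 in adjacent liver. Across all probes 1561 were called (3.45%), of which 1041 were higher (2.30%) and 520 lower (1.15%) in tumours at an adjusted p under 0.05 (limma, Benjamini-Hochberg). The tumour of animal 1316 stood apart: 174 genes read lower there by over 2 log2 units than in its own adjacent liver, against 6 in animal 1293 and 0 in animal 1309. Another label of that tumour gives a different animal number, and the title was followed. The tissue read as hepatocyte in both groups by its markers. Summed over 15 measured hepatocyte markers, the linear signal was 298200 to 330400 in tumours and 311300 to 324100 in adjacent liver. Of these markers 13 were above background on at least 3 arrays and 2 below it on all arrays. The probes named Alb, Tat and Fgb, genes that liver expresses strongly, read no higher than 7.79 on the log2 scale on any array. The background level on that scale was 6.84 to 6.97. A dim probe, or one at background, thus does not show that its transcript is missing.

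In the tumours the expressed Cyp3a genes read lower than in the liver beside them, by amounts that differed between genes and animals. Of the 7 member probes 2 fell at an adjusted p under 0.05 and 0 rose (limma), where 1.15% of all probes and 3.60% of those above background on all 6 arrays fell. One was the probe of Cyp3a25 and the other was 1 of the 3 probes of Cyp3a13. Without any adjustment, 5 probes had a p under 0.05, which are the 5 probes above background on all 6 arrays. All 5 read lower in tumours, as did 7.37% of all probes at that threshold and 19.0% of the 11586 probes above background on all arrays. Of those 5, 4 had every tumour below every adjacent liver, a pattern shown by 9.73% of all probes and by 19.0% of the 11586 probes above background on all arrays. With the animal as a replicate block, 4 member probes fell, against 2.26% of all probes. Read from the brightest probe of each gene, 1 of 5 genes fell without the block and 2 with it, against 1.56% and 3.11% of all genes (5.21% were called in either direction without the block). With 1 array omitted the number of member probes that fell was 0 (without the tumour of 1293, or the adjacent liver of 1293 or 1309), 2 (without the tumour or the adjacent liver of 1316) or 5 (without the tumour of 1309). Without both arrays of animal 1316 no member probe passed (adjusted p between 0.0592 and 0.22 for the probes of Cyp3a25, Cyp3a13 and Cyp3a11, limma).

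**Figure D1:**
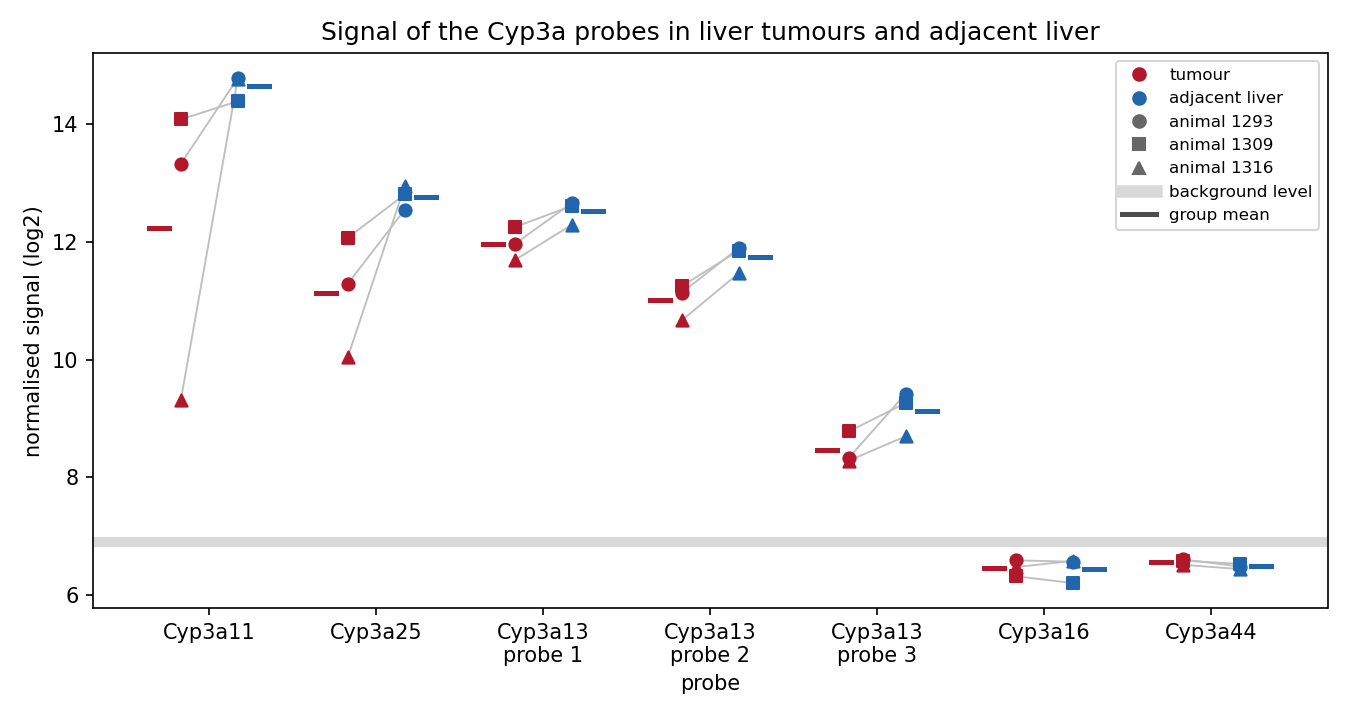
Normalised log2 signal (vertical axis) of the 7 Cyp3a probes (horizontal axis) in tumours, red and on the left of each pair, and adjacent liver, blue and on the right. Marker shapes stand for the 3 animals, grey lines join the tissues of 1 animal, short bars are group means (n = 3) and the grey band is the background level. Cyp3a11 reads 9.32 in the tumour of animal 1316 and at least 13.33 on the other 5 arrays, while Cyp3a16 and Cyp3a44 stay below the band throughout.

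Cyp3a11, the most abundant Cyp3a enzyme of mouse liver, had raw signals of 8679 (animal 1293), 18328 (animal 1309) and 815.1 (animal 1316) in the tumours. In the adjacent livers the same animals read 25830.2, 22023 and 29404. The tumour of 1316 was far below the other arrays, that of 1309 lay just under the lowest adjacent liver, and the groups did not overlap. Ranked by raw signal among 45281 probes, Cyp3a11 stood at 458, 228 and 5082 from the brightest in the tumours of 1293, 1309 and 1316, against 98, 160 and 101 in their adjacent livers. On the log2 scale the tumours averaged 12.24 ± 2.56 and the adjacent livers 14.65 ± 0.22 (SD, n = 3 each). The fitted difference was −2.40 (SE 0.87), which did not pass (adjusted p = 0.195, limma, and 0.0709 with the block). Within animals the log2 difference of tumour from adjacent liver was −1.45 in 1293, −0.31 in 1309 and −5.45 in 1316. The spread between tumours is thus larger than the mean difference: its SD ranked 7 from the widest among 19057 genes, whereas the SD between adjacent livers ranked 5319. Leaving out the tumour of 1316 gave a smaller difference that passed, −0.93 (SE 0.21, adjusted p = 0.0383, limma). Leaving out the tumour of 1309 gave −3.325 (SE 0.78, adjusted p = 0.0263). Without both arrays of 1316 it was −0.88 and did not pass (adjusted p = 0.139), and the other 4 omissions of 1 array gave adjusted p-values from 0.232 to 0.381.

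Cyp3a25, a steroid- and drug-oxidising member, fell in the tumours. Its raw signal was 2295 in the tumour of animal 1293, 4679 in that of 1309 and 1303 in that of 1316. The adjacent livers read 5383, 7179 and 8557 in the same order of animals. All tumours were below all adjacent livers, and again the tumour of 1309 was nearest to the liver beside it and that of 1316 farthest. The log2 means were 11.14 ± 1.02 in tumours and 12.77 ± 0.20 in adjacent liver (SD, n = 3 each). The difference was −1.63 with an SE of 0.37 (adjusted p = 0.0315, limma), so the signal was 3.10 times as high beside the tumours as in them. By animal the difference was −1.26 in 1293, −0.74 in 1309 and −2.90 in 1316. The SD between its tumours ranked 110 of 19057 genes. The call held without the tumour of 1309 (−2.10, adjusted p = 0.00093) and without that of 1316 (−1.10, adjusted p = 0.0162). It was lost without the tumour of 1293 (−1.71, adjusted p = 0.108) and without the adjacent liver of 1293 (adjusted p = 0.0591), 1309 (adjusted p = 0.111) or 1316 (adjusted p = 0.13). Without both arrays of animal 1316 the difference was −1.002 and did not pass (adjusted p = 0.0781).

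Cyp3a13, which is expressed in intestine as well as liver, had 3 probes that differed by similar, small amounts. The brightest read 3602, 5237 and 3875 raw units in the tumours of 1293, 1309 and 1316, against 5897, 6320 and 5378 in their adjacent livers. Its tumours lay below all adjacent livers after normalisation. The difference was −0.55 on the log2 scale (SE 0.16), with an adjusted p of 0.102 (limma), or 0.0353 when the animal was a block. The second read 2078, 2665 and 1961 units in the tumours and 3417, 3690 and 3021 units in the adjacent livers. This probe fell, by 0.72 on the log2 scale (SE 0.17, adjusted p = 0.0435), without overlap of the groups. The dimmest read 363.1, 535.6 and 432.5 units in the tumours and 643.1, 655.7 and 482.5 in the adjacent livers, and here the groups overlapped after normalisation. Its difference was −0.66 (SE 0.19), with an adjusted p of 0.0989, or 0.0311 in the fit with the block. All 3 probes thus gave the same direction in all 3 animals, between −0.36 and −1.09. The loss in animal 1316, between −0.41 and −0.80, was not the widest on 2 of the 3 probes, unlike that of Cyp3a11 and Cyp3a25. The second probe no longer passed when the tumour of 1293 (adjusted p = 0.111) or 1316 (0.141), the adjacent liver of 1293 (0.137) or 1309 (0.153), or both arrays of 1316 (0.0592) were omitted. It still passed with the tumour of 1309 (0.02) or the adjacent liver of 1316 (0.0441) omitted. With that tumour omitted the brightest and dimmest probes passed too (0.0287 and 0.0321), and the dimmest also with that liver omitted (0.034).

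**Figure D2:**
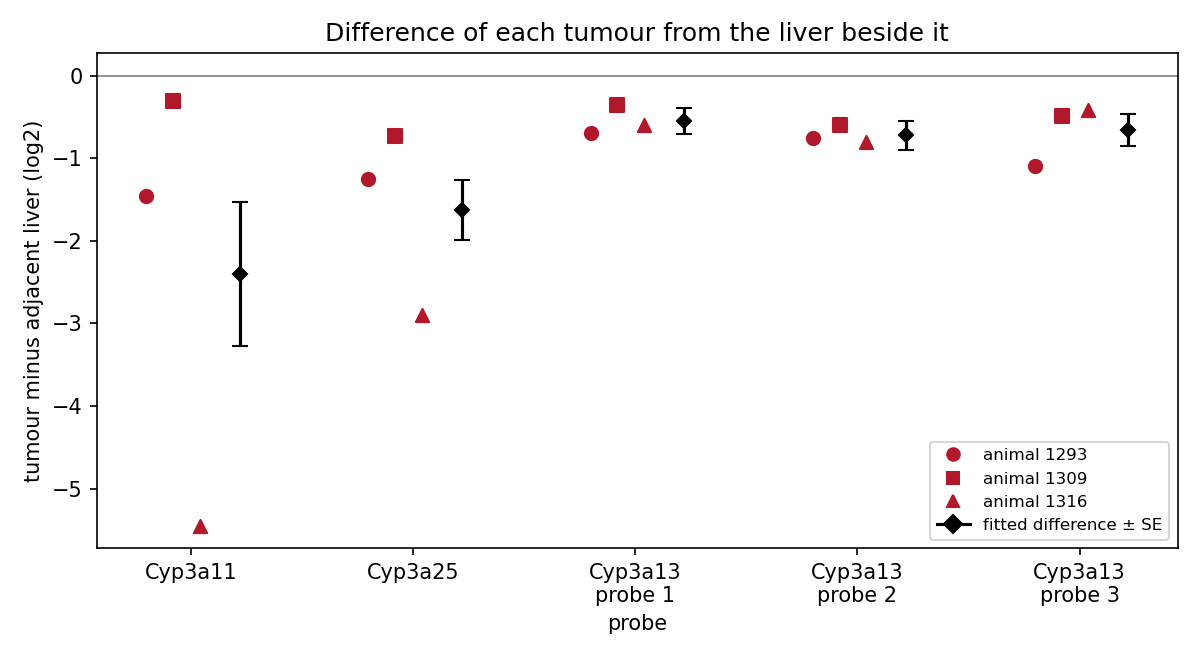
Log2 difference of each tumour from the liver beside it (vertical axis) for the 5 Cyp3a probes above background (horizontal axis), with marker shapes for the animals. Black diamonds are the fitted differences and bars their SE. Cyp3a11 spans −0.31 to −5.45 between animals, whereas the 3 Cyp3a13 probes lie between −0.36 and −1.09.

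Cyp3a16 and Cyp3a44, from the group of female-biased and early-life genes, stayed below background on all arrays. Cyp3a16 read 145.8 to 160.7 raw units in tumours and 141.6 to 165.6 in adjacent liver. Cyp3a44 read 146.8 to 166.1 units in tumours and 148.6 to 159.7 in adjacent liver. The tissues overlapped on both probes, no fold can be read, and neither passed (adjusted p = 0.987 and 0.848, limma). The same was true of both other Cyp3a genes with a probe. Cyp3a41b, whose promoter window matches that of Cyp3a41a at 99.6% of 250 bases, read 123.5 to 131.6 units in tumours and 112.5 to 138.2 in adjacent liver. Cyp3a57 read 111.3 to 139.3 units in tumours and 129 to 137 in adjacent liver. The labels give no sex, so transcripts of the sex chromosomes were read beside these genes. The Y-linked gene Eif2s3y averaged 9.88 ± 0.12 in tumours and 10.07 ± 0.06 in adjacent liver on 1 of its 2 probes (log2, SD, n = 3 each). The second Eif2s3y probe stayed under background throughout, as did all 4 probes of Xist, the RNA that coats the inactive X chromosome. Kdm5d, also Y-linked, was just above background on 3 of 3 tumour and 3 of 3 adjacent arrays on 1 probe, and below it on its other. The brightest probe of Y-linked Uty was above background on 1 tumour array. Signal of Y-linked probes was thus read on every array, and its bearing on the Cyp3a probes was not tested.

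Both main receptor genes of Cyp3a transcription were measured. Nr1i2, encoding PXR, read 9.44, 9.69 and 9.99 on the log2 scale in the tumours of 1293, 1309 and 1316, and 9.72, 9.62 and 9.81 in their adjacent livers, with a difference of −0.01 (SE 0.15, adjusted p = 0.992, limma). Its groups overlapped, and the tumour with the least Cyp3a11 had the highest Nr1i2 value. Nr1i3, encoding CAR, read 9.05, 10.31 and 6.59 in the tumours and 10.82, 11.24 and 11.34 in the adjacent livers on its brightest probe. The tumour value of animal 1316 is below background, and the groups did not overlap. This probe differed by −2.49 (SE 0.65, adjusted p = 0.062, limma, or 0.016 in the fit with the block). Another Nr1i3 probe fell by 2.34 (SE 0.56, adjusted p = 0.0438), one differed by −2.35 with an SE of 0.59 (adjusted p = 0.0532, or 0.0131 in the fit with the block), and 2 more were below background in adjacent liver and in at least 2 tumours. Hnf4a (−0.24, SE 0.13), Rxra (−0.39, SE 0.15) and Nr1h4, the bile acid receptor gene (−0.63, SE 0.19), did not pass (adjusted p = 0.439, 0.231 and 0.104). The probe of Nr3c1, the glucocorticoid receptor gene, was below background on every array, and no probe was listed for the P450 reductase gene Por. Of 19 measured regulators 1 rose and 0 fell, against 3.64% and 1.56% of all genes, with a median difference of −0.28 where that of all genes was −0.01. The risen one was the coactivator gene Ppargc1a, by 2.08 (SE 0.18).

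Of 15 measured genes that supply P450 enzymes with electrons and haem, 1 fell and 0 rose, against 1.56% and 3.64% of all genes. Under the block 4 were lower and 0 higher, against 3.11% and 4.55% of all genes. The list median was −0.34. Pgrmc2, a haem-binding membrane protein gene, fell by 0.76 (SE 0.15, adjusted p = 0.0194, limma). Cyb5a, the cytochrome b5 gene, read 14.40, 14.62 and 14.36 in tumours and 14.89, 14.97 and 14.85 in adjacent liver, without overlap, and did not pass (adjusted p = 0.0859). Alas1, which sets the rate of haem synthesis, did not pass either (0.19, SE 0.20, adjusted p = 0.773).

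Other genes that PXR and CAR are known to activate moved both ways. Of 21 measured, 4 rose and 3 fell, against 3.64% and 1.56% of all genes. The median was −0.05 (between −0.176 and 0.00189 over the alternative settings). Cyp2b10, the classical CAR target, read 12.02, 12.08 and 12.66 in the tumours of 1293, 1309 and 1316 and 8.77, 8.10 and 8.11 in their adjacent livers, a rise of 3.93 (SE 0.21, adjusted p = 7.49e-07, limma). The tumour of 1316, lowest in Cyp3a11, Cyp3a25 and Nr1i3, was highest in Cyp2b10. The glutathione transferase gene Gsta1 rose by 2.69 (SE 0.26), the glucuronosyltransferase gene Ugt1a9 by 2.13 (SE 0.25) and Cyp2a5 by 1.05 (SE 0.21). Falls were called for the uptake transporter gene Slco1a4, by 0.83 (SE 0.18), the export pump gene Abcc3, by 0.72 (SE 0.16), and Gstt1, by 0.70 (SE 0.17). The glucuronosyltransferase gene Ugt1a1 read 9.73, 11.02 and 7.44 in the tumours of 1293, 1309 and 1316, against 11.50, 11.72 and 11.92 in their adjacent livers. It differed by −2.32 (SE 0.62) and did not pass (adjusted p = 0.0687, limma, or 0.0196 in the fit with the block).

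Among 39 measured P450 genes outside the Cyp3a family, 4 rose and 2 fell, against 3.64% and 1.56% of all genes, and the median difference was −0.33. With the animal as a block 12 fell, against 3.11% of all genes. Over the probes above background on at least 3 arrays the median was −0.582. Beside Cyp2b10 and Cyp2a5, Cyp17a1 of steroid synthesis rose by 4.91 (SE 0.39), and Cyp2b13 passed (adjusted p = 0.041, limma) with a signal over background in 2 tumours and in no adjacent liver. Cyp2d26 fell by 0.86 (SE 0.16) and Cyp2u1 by 0.61 (SE 0.12), and Cyp2u1 was above background on 1 of 3 tumour arrays. Summed over these 39 genes, the linear signal was 193300 to 317400 in tumours, against 336200 to 348300 in adjacent liver. The brightest genes weigh most in such a sum, so it does not describe each of the 39.

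**Figure D3:**
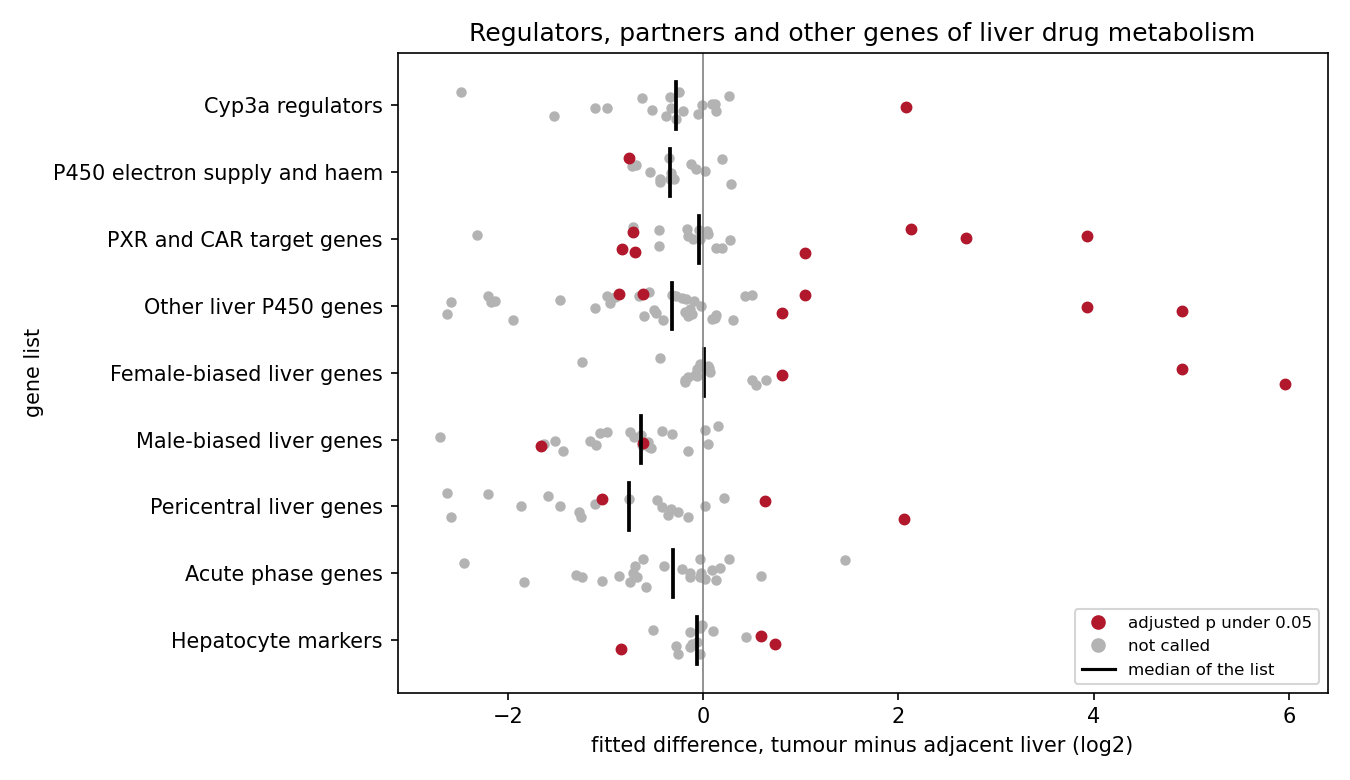
Fitted log2 difference of tumour from adjacent liver (horizontal axis) for each measured gene of 9 lists (vertical axis), the Cyp3a members left out. Red points passed an adjusted p of 0.05, grey ones did not, and black bars are list medians. The bar of the female-biased list lies at 0.01 and those of the other 8 lists below 0, from −0.05 for the PXR and CAR targets to −0.76 for the pericentral genes, with the acute phase list at −0.31.

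The genes whose signal followed Cyp3a11 most closely over the 6 arrays were other hepatocyte enzymes with the same deep value in the tumour of animal 1316. Compared over 8295 genes above background on at least 3 arrays, they were Hsd3b5, a steroid enzyme gene of male liver (Pearson r = 0.9985, 6 arrays), Cyp2c23 (0.997), the paraoxonase gene Pon1 (0.997), Cyp1a2 (0.996) and Cyp2c50 (0.995). Hsd3b5 read 11.36, 12.09 and 6.77 in the tumours of 1293, 1309 and 1316, against 12.94, 12.67 and 12.70 in the adjacent livers. Cyp1a2, a pericentral enzyme of caffeine and oestrogen oxidation, read 12.07, 12.93 and 8.63 in the tumours, against 13.48, 13.46 and 13.30. None of these 5 genes passed without the block (adjusted p between 0.134 and 0.287, limma), and Cyp2c23, Pon1 and Cyp1a2 passed with it (adjusted p = 0.0468, 0.0414 and 0.0424). These correlations rest on 1 far array, are descriptions, and share the normalisation of the arrays.

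The genes most like Cyp3a25 were Cyp2d13 (Pearson r = 0.999, 6 arrays), the transporter gene Slc22a23 (0.998), Gpld1, which encodes a plasma phospholipase (0.998), the aldehyde dehydrogenase gene Aldh2 (0.997) and Fetub, which encodes the plasma protein fetuin B (0.997). Of these, Fetub fell by 1.49 (SE 0.30, adjusted p = 0.0192, limma), Gpld1 by 1.48 (SE 0.31) and Cyp2d13 by 1.56 (SE 0.35), while Slc22a23 and Aldh2 did not pass (adjusted p = 0.0782 and 0.17). Slc22a23 passed with the block (0.036). Nr1i3 tracked Cyp3a25 at r = 0.995 and Cyp3a11 at 0.968, and Cyp3a11 tracked Cyp3a25 at 0.942, where Nr1i2 stood at −0.329 against Cyp3a25 (6 arrays each, no test). For the brightest Cyp3a13 probe the closest were 1110028F11Rik, Ift27, Tmem9b, Ero1b and Cacfd1, at 0.991 to 0.999. No gene was named for more than 1 member.

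**Figure D4:**
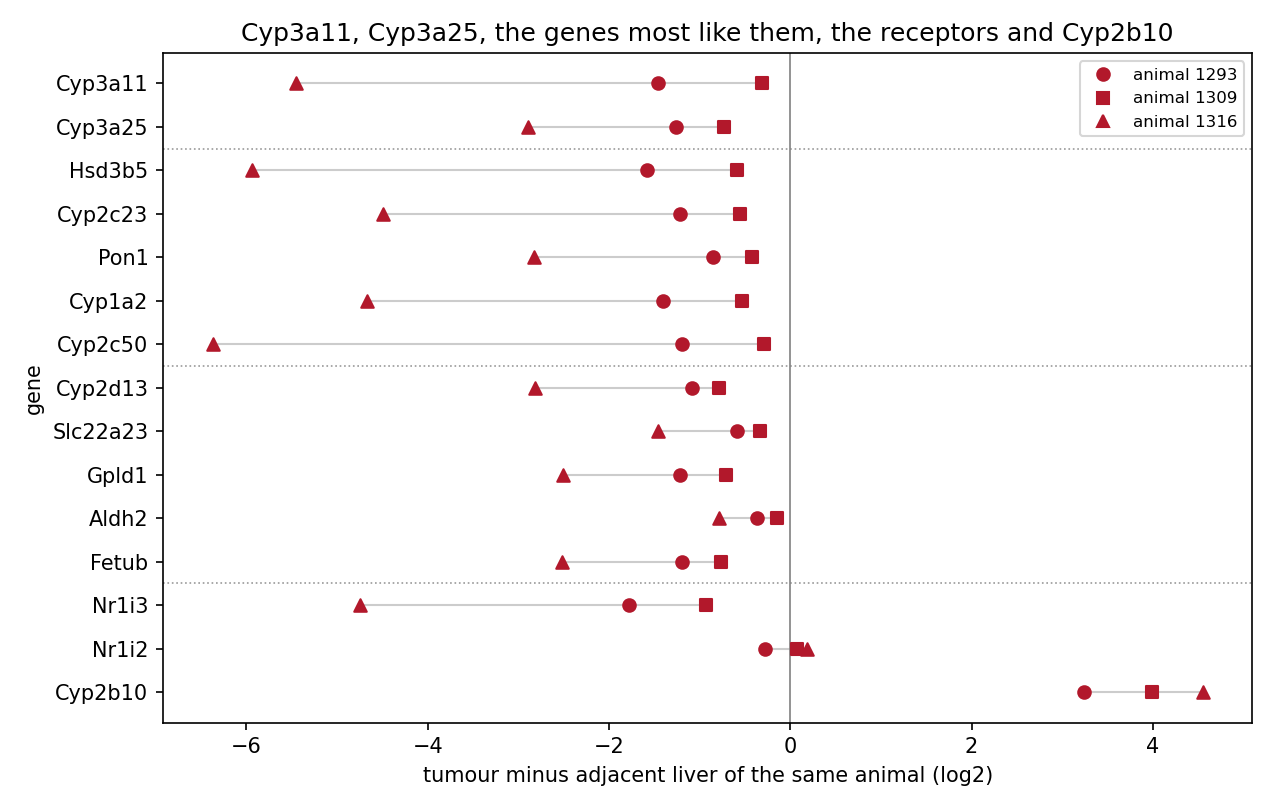
Log2 difference of each tumour from the adjacent liver of the same animal (horizontal axis) for, from top to bottom, Cyp3a11 and Cyp3a25, the 5 genes most like Cyp3a11, the 5 most like Cyp3a25, the receptor genes Nr1i3 and Nr1i2, and Cyp2b10 (vertical axis). Marker shapes stand for the animals. All genes above Nr1i2 have the order 1316, 1293, 1309 from lowest to highest, Nr1i2 lies near 0, and Cyp2b10 is higher in all 3 tumours.

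Lists of sex-biased, pericentral and acute phase genes are given by their counts. Of 23 male-biased genes 2 fell and 0 rose, against 1.56% and 3.64% of all genes, and the median was −0.64. With the block 13 were lower, against 3.11% of all genes. The median was −0.423 without the tumour of 1316. Susd4 fell by 1.66 (SE 0.38, adjusted p = 0.0326, limma). Of 18 female-biased genes other than Cyp3a members 3 rose and 0 fell, against 3.64% and 1.56% of all genes. Those that rose were Cyp2a4, at least 43.9-fold higher in tumours, Cyp17a1 and Cyp2b13, and the list median was 0.01. Of the 18, 10 were below background on all arrays, and over the probes above background on at least 3 arrays the median was 0.594. The probes of Cyp3a16, Cyp3a44 and Cyp3a41b stayed at background in the same tumours. Of 21 pericentral genes 2 rose and 1 fell, against 3.64% and 1.56% of all genes. Under the block 7 were lower, against 3.11% of all genes. The pericentral median was −0.76. It was −0.365 without the tumour of 1316 and −0.353 without both arrays of that animal. By animal the pericentral median was −0.66 in 1293, −0.21 in 1309 and −1.36 in 1316, the same order as for Cyp3a11. That order was not particular to this list. In the same animals the male-biased medians were −0.62, −0.36 and −1.05, and those of the other P450 genes −0.414, −0.179 and −0.442. The list of other P450 genes shares members with the pericentral and male-biased lists, so their orders are not independent. The macrophage medians were −0.461, 0.174 and −1.09. The PXR and CAR target, female-biased, acute phase, hepatocyte, biliary and endothelial lists had another order. Rgn fell by 1.04 (SE 0.24), whereas the amino acid transporter gene Slc1a4 rose by 2.05 (SE 0.31) and Oat, ornithine aminotransferase, by 0.63 (SE 0.14). Acute phase genes rise when inflammation lowers P450 transcripts, and the part of inflammation in these values was not tested. None of the 26 measured passed in either direction (limma), where 3.64% of all genes were called higher and 1.56% lower. At an unadjusted p under 0.05 (limma), 2 were higher and 8 lower, where 7.37% of all probes were lower. With the block, 2 of them passed as higher and 8 as lower, against 4.55% and 3.11% of all genes. The median of the acute phase list was −0.31. It was −0.139 with the 1316 tumour omitted, −0.181 and −0.671 with the adjacent liver of 1293 or of 1316 omitted in turn, and −0.601 over probes above background on at least 3 arrays.

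Markers of other cells in the tissue were set beside these values. In bulk tissue fewer cells of a type and less RNA per cell cannot be told apart. Over all genes, 3.64% were called higher and 1.56% lower in tumours. At an unadjusted p under 0.05 (limma), 7.37% of all probes were lower, and the share that was higher was not counted. Of 10 macrophage markers 1 rose, Gpnmb, at least 6.81-fold, and Cd5l was below background on all arrays. Their summed signal was 3222 to 5708 in tumours and 4382 to 7184 in adjacent liver. Clec4f, which marks Kupffer cells, read 9.57, 10.35 and 7.22 in the tumours of 1293, 1309 and 1316 and 10.60, 10.22 and 10.71 in their adjacent livers, so its lowest value was in the same tumour as that of Cyp3a11. Of 12 stellate cell and fibroblast markers 3 fell, Reln, Dcn and Lum, by 1.25, 0.93 and 0.64, and none was below background on all arrays. Their sum was 5452 to 8916 in tumours and 10120 to 12620 in adjacent liver. Endothelial markers had 0 of 11 called (limma; 1 higher and 3 lower at an unadjusted p under 0.05), a sum of 7161 to 9253 in tumours and 8465 to 12150 in adjacent liver, and Kdr below background on all arrays. Lymphocyte markers had 0 of 10 called (2 higher and 0 lower at an unadjusted p under 0.05), 5 of them below background throughout (Cd8a, Cd4, Ms4a1, Gzmb and Ptprc). None was above background on at least 3 arrays. Their sum, 918.9 to 989.9 in tumours and 870.5 to 880.7 in adjacent liver, is thus signal at or near background and gives no difference in lymphocytes. Of 8 biliary and progenitor markers Krt23 rose by 1.52 (SE 0.25), 6 were below background throughout, Krt7, Krt19 and Epcam among them, and the sum was 1572 to 1775 in tumours and 1229 to 1566 in adjacent liver. The part of these cells in the Cyp3a differences was not tested. Hepatocyte markers had 2 higher (Cps1 and Hpd), 1 lower (the dim Alb probe) and a median of −0.06 (−0.138 with median scaling).

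Among the genes on either side of the Cyp3a genes, 1 had probes above background. Azgp1, a secreted zinc-binding glycoprotein gene next to Cyp3a13, read −0.19 (SE 0.12) and −0.07 (SE 0.12) on its 2 bright probes and did not pass (adjusted p = 0.557 and 0.888, limma). Gjc3, beyond Cyp3a13, and Zscan25 and 1700001J03Rik, at the ends of the main cluster, were below background on all arrays. The remaining neighbours had no probe under their symbols.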

How the data were processed

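Linear intensities of 45281 probes were taken from the deposited table without normalisation; its values show no background subtraction. The deposited log2 table holds the same arrays quantile-normalised by the authors, as read from its values, and served as an alternative. GenomeStudio is named, per the submitters' processing notes, with no version. Intensities were corrected with normexp (offset 50), quantile-normalised and log2-transformed in limma 3.58.1 under R 4.3.3. The background level of an array was the mode of its log2 signals plus 3 SDs mirrored from below the mode. "At least" folds set the brighter mean against that level in the dimmer group. Platform symbols were single for 34885 probes. A gene was read from its brightest probe.

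Tumours and adjacent liver (n = 3 each) were compared with lmFit and eBayes over all probes, Benjamini-Hochberg threshold 0.05, after a test on simulated data. Nothing says whether samples of a group were processed apart. Titles pair the tissues by animal (deviations correlated at 0.412, 0.249 and 0.0902 for 1293, 1309 and 1316, over 14026 probes), so fits with the animal as block (statmod 1.5.0 for the random form) are given. The pair of 1316 had the weakest correlation, and another label gives its tumour a different animal number. All results with the block, and the differences within animal 1316, depend on that pair being right. Named genes were all members, fixed receptors, up to 4 called members per list (with up to 2 the other way), the 5 best correlated genes per expressed member, and neighbours. Cyb5a, Alas1, Clec4f, Gstt1 and Ugt1a1 were named after their values were seen. Members and lists were chosen with earlier results of these data known. Promoters were aligned with Biopython 1.88.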

Additional observations from a re-analysis of the deposited data

How the results depend on the processing

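Direction was the same under every alternative for the probes of Cyp3a11, Cyp3a13 and Cyp3a25, with log2 differences of −3.325 to −0.8813 for Cyp3a11, −2.102 to −1.002 for Cyp3a25 and −0.873 to −0.4126 over the Cyp3a13 probes. Cyp3a25 and the second Cyp3a13 probe passed in 7 of 17 settings each, Cyp3a11 in 2. Cyp3a16, at background, ranged from −0.1129 to 0.08215 with 1 array less, and turned negative without the tumour of 1293 (−0.05253) and without the adjacent liver of 1309 (−0.1129).
The 2 member probes called became 0 without background correction, with the deposited log2 table, with an offset of 16, with dim probes filtered out and without animal 1316 (added after seeing the data), 1 with cyclic loess or a trended robust variance, and 4 with the replicate block. The 1 member gene called became 2 with the block, and 0 with no background correction, the deposited table, the offset of 16, the filter, the trended variance, without animal 1316 or with the probes of a gene averaged. Leaving out 1 array gave 0 to 5 probes and 0 to 3 genes.
The 1561 probes called overall became 1012 without background correction and with the deposited table, 787 with the offset of 16 and 620 without animal 1316; 1 array less gave 666 (without the tumour of 1293) to 2509 (without that of 1309). The number of list genes called, 26, was 17 without background correction and with the deposited table, 10 with the offset of 16, 67 with the block, 16 without animal 1316, 13 with averaged probes, and 13 (without the adjacent liver of 1316) to 67 (without the tumour of 1309) with 1 array less. Of called probes 66.7% were higher in tumours, against 75.9% without background correction, 86.0% with the offset of 16, 83.4% with median scaling and 56.0% with the block. The causes were not tested. In data simulated on all 45281 probes for this comparison, 56.4% of planted falls of 1 log2 unit and 2.4% of falls of 0.5 were recovered. By that measure 3 arrays per group could miss falls of the size seen for Cyp3a13. Each simulated set held far fewer changed probes than the 1561 called here, which makes the adjusted threshold stricter. Its noise was independent between arrays, so the recovered shares may differ in these data.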
